A study of Mus musculus with 28 samples.

Results

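The genes of 42 nuclear receptors were examined in maps of the histone variant H3.3 and of acetylated histone H3 (H3K27ac) in mouse embryonic stem cells. The members were the 42 receptor genes of a list drawn up by name, and all 42 were found among the 21887 protein-coding genes on the assembled chromosomes of the gene table. Nuclear receptors are transcription factors, many of which are switched by a small lipophilic ligand such as retinoic acid, thyroid hormone, a steroid or a fatty acid derivative, while orphan receptors have no established physiological ligand. They bind DNA through copies of a 6-base half-site, often as heterodimers with a retinoid X receptor, and recruit corepressors or coactivators that change histone acetylation. In embryonic stem cells retinoic acid acting on its receptors drives differentiation, and several orphan receptors specify neural, mesodermal or germline cells later in development.

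CUT&RUN, in which an antibody tethers a nuclease to its target so that the DNA around it is cut out and sequenced, was applied to nuclei of the male embryonic stem cell line E14. The 28 libraries were 7 for each of H3.3, H3K27ac and H3K122ac and 7 controls that received no primary antibody. Wildtype cells had 2 libraries per target. The mutant genotypes were H3f3a_AA_H3f3b_WTWT, H3f3a_WTWT_H3f3b_AA and H3f3a_WTA_H3f3b_AA, with 1 library per target each, and H3f3a_AA_H3f3b_WTA, with 2 libraries from 2 clones. H3f3a and H3f3b encode H3.3, and the series title names the substitution K122A. The growth medium is described both with LIF alone and with LIF and 2 kinase inhibitors, without saying which was used for these libraries. The values analysed here are the positions of 5446 consensus H3.3 regions and 57857 consensus H3K27ac regions, without a height or a value per library. Whether a region belongs to wildtype cells, mutant cells or both is therefore unknown, depth is unknown, no test across samples could be made, and the counts below describe 1 pooled list per target. The nuclease fusion and the salt used to stop digestion differed between the targets, so a longer covered length in one set than in the other does not show a larger amount of that mark, and where both lengths are set side by side the same is given over all genes.

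H3.3 regions were found at the ends of 12 receptor genes and H3K27ac regions at the ends of 12. The 4 genes in both groups were 9.52% of the members, against 10.7% of all genes. A region was counted at a gene end if at least 1 bp of it lay no more than 1 kb from the first or last annotated base of the gene. H3.3 was thus present at 28.6% of the members (exact 95% interval 15.7 to 44.6%, for counting over genes only), against 16% of all protein-coding genes. H3K27ac was present at the same share of members, 28.6%, against 38.8% of all protein-coding genes. None of the members lies on a sex chromosome, and over autosomal genes alone the shares were 16.8% for H3.3 and 40.6% for H3K27ac. H3.3 without H3K27ac marked 8 members (19%, against 5.31% of all genes), namely Rxrb, Rorb, Nr2e1, Nr2f1, Nr2f2, Esrra, Nr4a3 and Nr6a1. H3K27ac without H3.3 marked the ends of another 8 (19%, against 28.2%), namely Rara, Nr1d1, Nr1i3, Nr2c1, Nr2f6, Nr4a1, Nr4a2 and Ppard. Of these, Rara and Nr4a2 had H3.3 regions inside the gene, away from its ends. Both marks were present at the ends of Rarg, Nr1h2, Nr1h3 and Nr2c2 (9.52%, against 10.7%), and neither at those of the other 22 (52.4%, against 55.8%). The members' shares with both marks and with neither are close to those of all genes, and of the 4 states H3.3 alone differs most in ratio. The members are 1 gene family and no test of these shares was made.

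**Figure D1:**
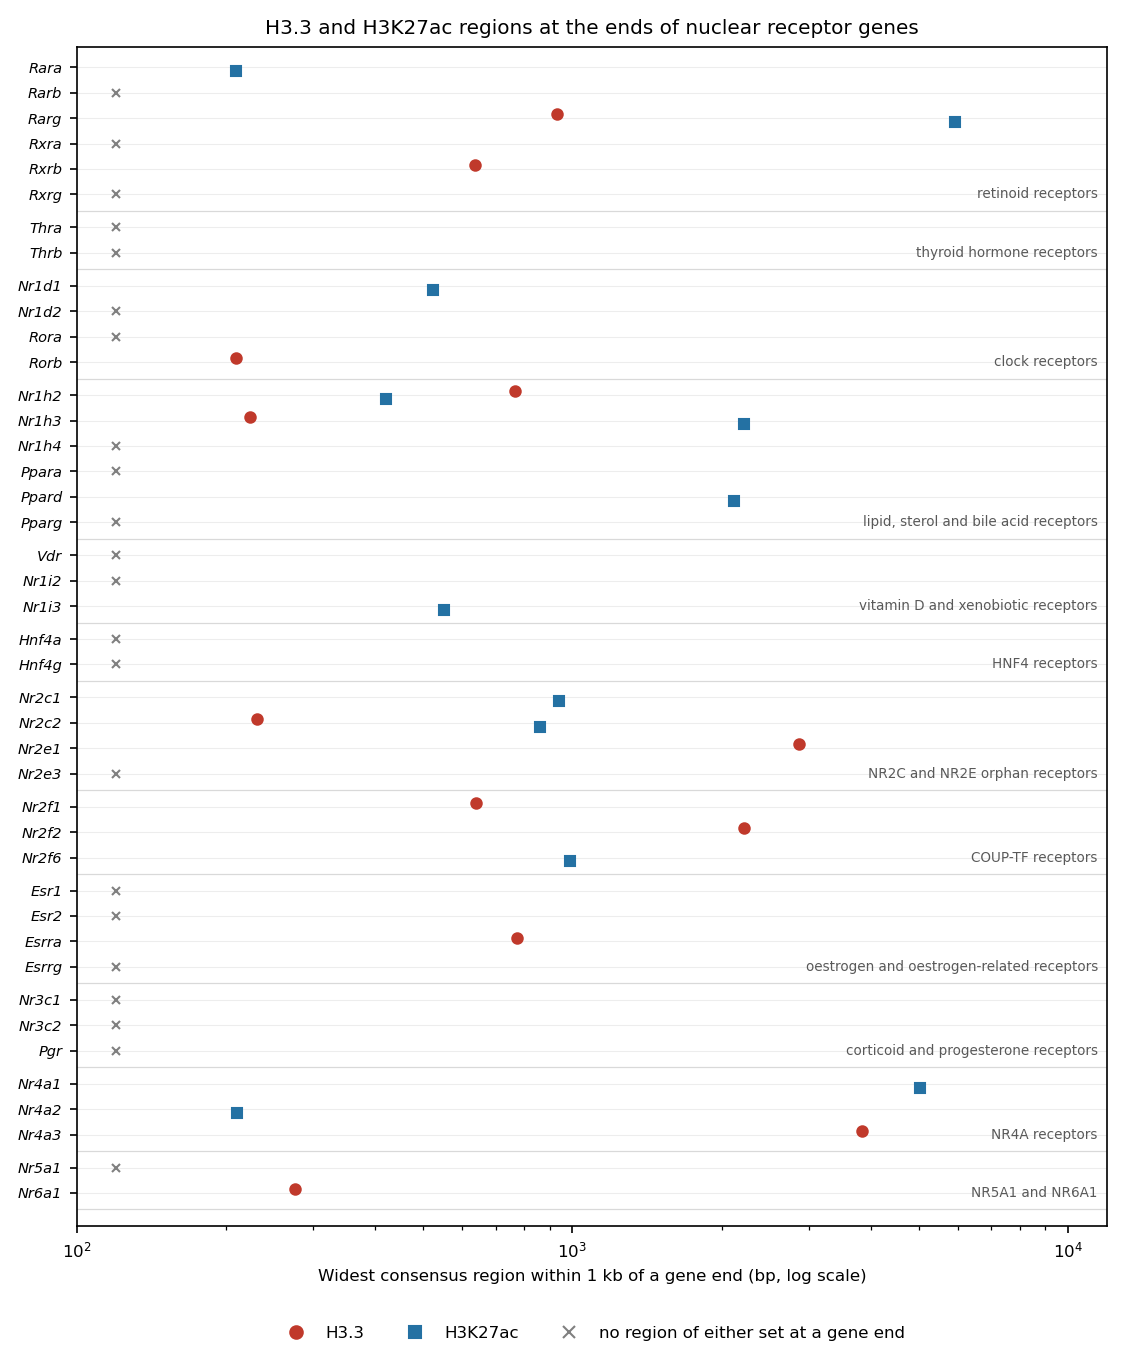
Width in bp (log scale) of the widest H3.3 region (red circles) and H3K27ac region (blue squares) within 1 kb of an end of each of the 42 receptor genes, grouped by role, with grey crosses for genes with no region of either set there. H3.3 is widest at Nr4a3 (3849 bp) and H3K27ac at Rarg (5924 bp), and 22 genes have none.

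H3.3 was widest at the ends of Nr4a3, Nr2e1 and Nr2f2, which all belong to orphan families. The start windows of the NR4A genes are printed because these relatives carried different marks. Those of the COUP-TF genes Nr2f1 and Nr2f2 are printed because they differed in CpG content. A start window is the 300 bases from 250 before to 50 after a listed transcription start (RefSeq, GRCm38.p6). The table of start windows held 57 windows for 38 of the 42 members. Thra, Hnf4g, Nr3c1 and Nr5a1 have no entry. The NR4A genes Nr4a1, Nr4a2 and Nr4a3 are immediate early genes, induced within minutes by growth factors and by cyclic AMP through the factor CREB. Capitals mark the 5-base core TGACG of the cyclic AMP response element, read on either strand.
Nr4a1: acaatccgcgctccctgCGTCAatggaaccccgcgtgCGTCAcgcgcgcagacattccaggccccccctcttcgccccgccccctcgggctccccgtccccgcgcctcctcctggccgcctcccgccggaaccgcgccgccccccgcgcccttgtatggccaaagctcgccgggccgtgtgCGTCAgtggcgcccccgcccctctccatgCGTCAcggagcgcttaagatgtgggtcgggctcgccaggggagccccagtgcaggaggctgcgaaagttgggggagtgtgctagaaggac
Nr4a2: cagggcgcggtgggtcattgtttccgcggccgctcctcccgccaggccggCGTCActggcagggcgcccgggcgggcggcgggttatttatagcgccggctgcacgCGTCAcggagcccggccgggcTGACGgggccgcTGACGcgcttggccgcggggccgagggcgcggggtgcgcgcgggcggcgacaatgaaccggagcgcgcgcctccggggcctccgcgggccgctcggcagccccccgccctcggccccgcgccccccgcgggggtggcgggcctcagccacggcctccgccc
Nr4a3: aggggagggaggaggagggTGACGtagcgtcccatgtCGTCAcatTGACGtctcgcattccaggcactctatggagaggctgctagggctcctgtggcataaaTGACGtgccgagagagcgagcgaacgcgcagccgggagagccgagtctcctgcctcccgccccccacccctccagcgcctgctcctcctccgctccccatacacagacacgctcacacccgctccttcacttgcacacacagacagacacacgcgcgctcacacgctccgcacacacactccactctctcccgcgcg
These windows are chr15:101266596-101266895 (plus strand), chr2:57123954-57124253 (minus strand) and chr4:48045055-48045354 (plus strand), each written 5′ to 3′ along the gene. Each of the 3 holds 4 copies of TGACG on the 2 strands together. Among all 21263 start windows of protein-coding genes 69 (0.325%) hold 4 or more, and among the 57 receptor windows only these 3 do. This motif was chosen after the sequences were seen.

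The 3 NR4A genes share this sequence feature but not their marks. At Nr4a3, which encodes NOR1, an H3.3 region of 3849 bp on chromosome 4 from 48043023 to 48046871 covered all 300 bases of the start window, and a further region of 1079 bp lay just inside the gene. No H3K27ac region was found within Nr4a3 or 50 kb of it, and the nearest was 135069 bp away. At Nr4a1, which encodes NUR77, the start window held no base of either mark and lay in a gap between H3K27ac regions of 720 and 578 bp that flank the start. H3K27ac regions of 2057 and 5034 bp followed at its 3′ end, the last running on to 101280148 on chromosome 15. In all 18 H3K27ac regions covered 15.8% of Nr4a1 and 50 kb either side of it. Of these, 6 touched the gene body. The others, except that of 5034 bp, lay nearest to the neighbours Acvr1b, Grasp and Atg101. The 2 H3.3 regions in this window, of 203 and 205 bp, also lay at Grasp and Atg101, and each touched an H3K27ac region there. Nr4a2, which encodes NURR1, a factor of dopaminergic neurons, differed from both. It had H3.3 regions of 2836 and 938 bp inside the gene and a single H3K27ac region of 210 bp at its 5′ end, which also touched an end of the predicted gene LOC105244150.

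The COUP-TF genes encode orphan receptors of neural, vascular and mesenchymal development. The start windows of Nr2f1 and Nr2f2 are printed with CpG dinucleotides in capitals, since CpG content is compared below. That of the third COUP-TF gene, Nr2f6, which holds 53 CpGs, is not printed.
Nr2f1: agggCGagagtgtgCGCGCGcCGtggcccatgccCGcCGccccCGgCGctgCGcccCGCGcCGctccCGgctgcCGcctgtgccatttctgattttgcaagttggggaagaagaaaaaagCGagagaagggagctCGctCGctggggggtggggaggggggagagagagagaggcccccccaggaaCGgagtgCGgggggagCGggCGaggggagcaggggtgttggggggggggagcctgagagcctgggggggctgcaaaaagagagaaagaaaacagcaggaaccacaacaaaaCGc
Nr2f2: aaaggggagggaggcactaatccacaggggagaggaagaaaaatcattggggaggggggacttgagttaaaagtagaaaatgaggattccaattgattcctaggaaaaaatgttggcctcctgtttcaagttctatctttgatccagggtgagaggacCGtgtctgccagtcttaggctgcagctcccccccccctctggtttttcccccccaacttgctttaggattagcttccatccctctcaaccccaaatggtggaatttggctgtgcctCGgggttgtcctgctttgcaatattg
The windows are chr13:78198824-78199123 and chr7:70366697-70366996, both on the minus strand, and for Nr2f1 this is the start at the 5′ end and not the second listed one inside the gene. That of Nr2f1 holds 23 CpGs and that of Nr2f2 holds 2, and no H3.3 region covered a base of either window, although both genes had H3.3 regions beside them.

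Nr2f2 had more H3.3 sequence around it than any other member. Its 9 H3.3 regions were 288 to 2421 bp wide and covered 12827 bp, or 11.2% of the gene and 50 kb either side, and 30.9% of the gene itself. In the direction of transcription they were a region of 1809 bp upstream, one of 908 bp just after the start, 1816 and 1853 bp inside the gene, 2218 bp at the 3′ end, and 534, 288, 980 and 2421 bp downstream. All 9 were nearer to Nr2f2 than to any other protein-coding gene. No H3K27ac region was found within 50 kb, and the nearest was 111468 bp away. Nr2f1 had 6 H3.3 regions of 287 to 1574 bp, which covered 5042 bp (4.59%), of which 5 were nearest to Nr2f1, and its nearest H3K27ac region was 763351 bp away. The third COUP-TF gene, Nr2f6, showed the other pattern. It had an H3K27ac region of 990 bp at its 5′ end, shared with the neighbour Ushbp1, and 9 H3K27ac regions covering 8.21% of its window, none of which touched the gene itself. Its 3 H3.3 regions, of 590, 323 and 210 bp, lay outside the gene and nearest to Use1, Ocel1 and Ushbp1.

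Nr2e1, which encodes TLX, a repressor that maintains neural stem cells, had H3.3 but no H3K27ac at an end. An H3.3 region of 2862 bp on chromosome 10 from 42582095 to 42584956 covered the whole start window. Regions of 2301 bp inside the gene, 1966 bp upstream of it and 420 bp farther upstream, the last nearest to Ostm1, brought the H3.3 sequence in the window to 7549 bp (6.21%). H3K27ac around Nr2e1 was limited to regions of 1129 and 244 bp, both beyond the 3′ end and nearest to Snx3. Its photoreceptor relative Nr2e3 had no H3.3 region within 50 kb and 1 H3K27ac region of 614 bp. The testicular receptors Nr2c1 and Nr2c2, which are widely expressed orphan receptors, were acetylated. Nr2c1 had an H3K27ac region of 938 bp at its 5′ end and 3 more inside the gene. Nr2c2 had H3K27ac regions of 862 and 679 bp at its 5′ end and 219 bp at its 3′ end. The only H3.3 region near Nr2c2, of 231 bp, lay within the one of 862 bp.

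**Figure D2:**
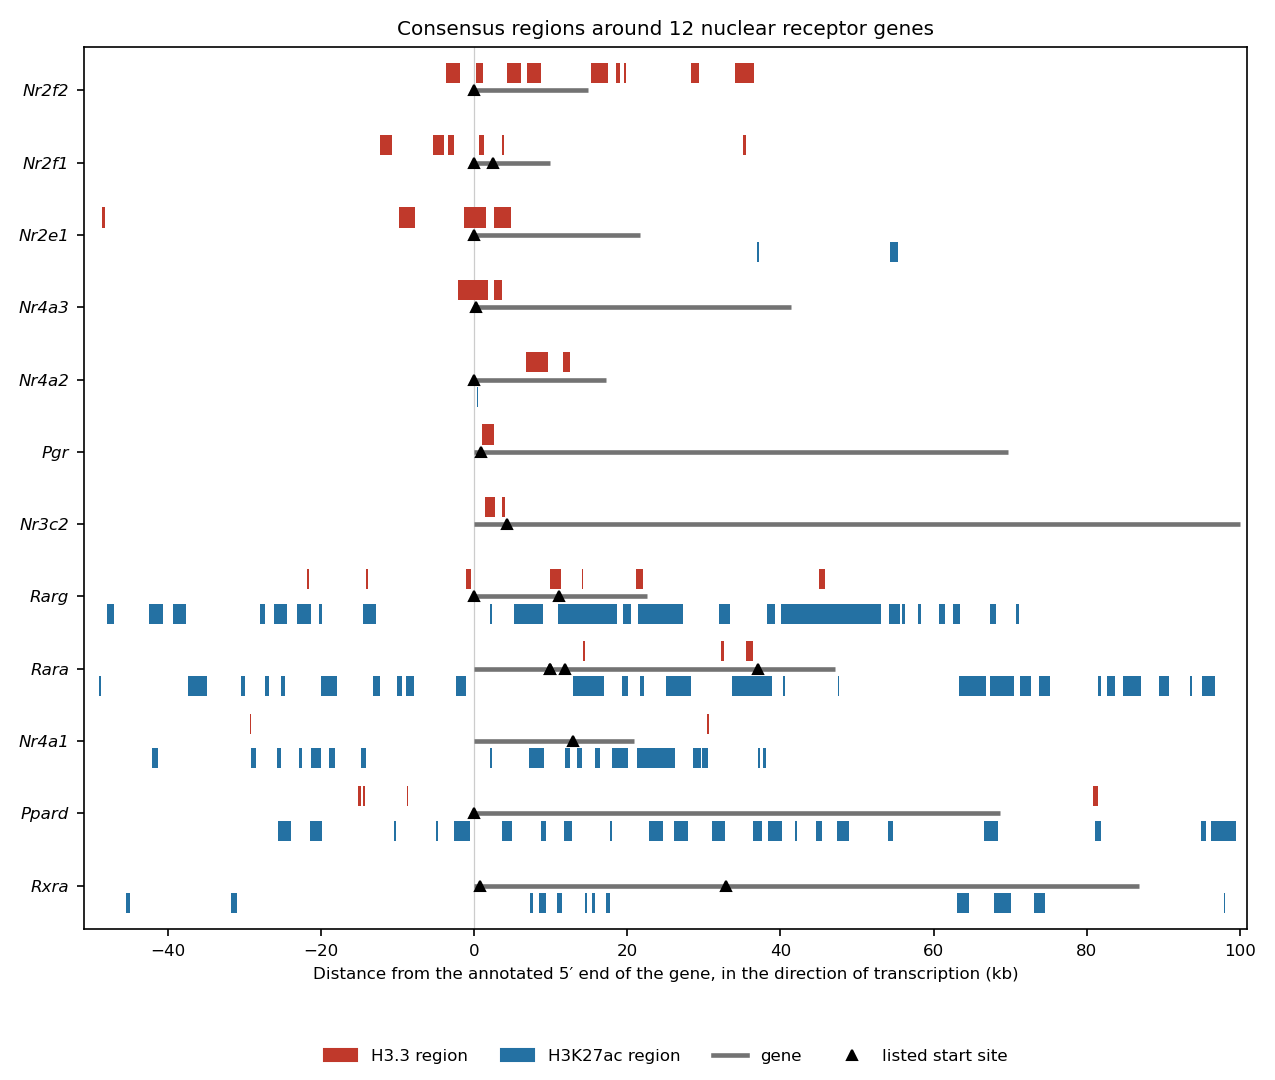
H3.3 regions (red, above) and H3K27ac regions (blue, below) at 12 receptor genes, by distance in kb from the annotated 5′ end in the direction of transcription, with the gene in grey and listed start sites as triangles; regions are drawn within 50 kb of the gene and up to 100 kb downstream of the 5′ end. Red blocks cluster over Nr2f2, Nr2f1, Nr2e1 and Nr4a3 with few or no blue blocks, while Rarg, Rara, Nr4a1, Ppard and Rxra carry many blue blocks.

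Among the 6 retinoid receptors, which bind retinoic acid or pair with those that do, acetylation was concentrated on Rarg and Rara. Rarg had 23 H3K27ac regions in the gene and 50 kb either side, covering 49831 bp (40.7%), and 62.4% of the gene itself was covered. This was the highest coverage of any member. The widest H3K27ac region there, 13024 bp, lay nearest to the neighbour Zfp740 and is not part of Rarg. Rarg has 2 listed starts. The one inside the gene, at 102246500 on chromosome 15, lay where an H3.3 region of 1478 bp overlapped the edge of an H3K27ac region of 7697 bp. The one at the annotated 5′ end had an H3.3 region of 570 bp and no H3K27ac region within 1 kb. At the 3′ end an H3.3 region of 930 bp touched an H3K27ac region of 5924 bp, which also reached the end of Itgb7.

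Rara likewise had both marks at an inner start. Of its 4 listed starts, 3 had no region of either set within 1 kb. The fourth, at 98964872 on chromosome 11, had 1007 bp of H3.3 inside an H3K27ac region of 5246 bp, and the latter covered the whole start window. A second H3K27ac region with H3.3 inside it, of 3981 and 253 bp, began just outside the 1 kb window of the third start. Both of these regions also touched the end window of the gene Gm46294. Around Rara 27 H3K27ac regions covered 41134 bp (28%), of which 6 touched the gene body. The widest of the others, 3436 bp, lay at Top2a. Rxra, the retinoid X receptor that pairs with many other receptors, had no H3.3 region within 50 kb and no region at an end. It nevertheless had 9 H3K27ac regions of 298 to 2125 bp inside the gene, covering 9.5% of it. Rxrb had a single H3.3 region of 635 bp at its 5′ end, shared with the neighbour Slc39a7. This region covered the window of the first of its 2 listed starts and no base of the second. Rxrb had no H3K27ac region within 50 kb, but the nearest, at 50216 bp, lay just beyond that limit. Rxrg had no region at either end, and the only one in its window, an H3.3 region of 2132 bp, lay at the end of the neighbour Lmx1a.

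Rarb is the classical gene induced by retinoic acid, through a retinoic acid response element in its promoter, and its start window is shown for that reason. Capitals mark every copy, on either strand, of the half-site spelled AGGTCA or AGTTCA or GGGTCA or GGTTCA.
Rarb: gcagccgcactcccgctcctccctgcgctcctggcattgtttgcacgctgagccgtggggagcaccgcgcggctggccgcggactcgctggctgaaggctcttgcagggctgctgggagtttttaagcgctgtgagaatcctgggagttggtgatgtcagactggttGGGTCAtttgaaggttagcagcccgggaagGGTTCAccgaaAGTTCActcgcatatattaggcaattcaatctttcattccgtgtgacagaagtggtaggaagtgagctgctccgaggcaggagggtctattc
The window is chr14:16575427-16575726 on the minus strand. It contains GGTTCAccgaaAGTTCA, which is 2 half-sites in the same orientation with 5 bases between them, and which begins 53 bases before the listed start. Of all 21263 start windows 17 (0.08%) hold such a pair with any of the 4 spellings on either strand, and Rarb holds the only one among the 57 receptor windows. The 4 spellings were chosen after the sequence was seen. With AGGTCA alone no receptor window holds a direct repeat with a spacing of 1, 2, 4 or 5 bases, and single copies of AGGTCA occur in 10 of 57 receptor windows (17.5%) and 14.7% of all windows. Rarb had no H3.3 region within the gene or 50 kb of it, the nearest being 65388 bp away. The listed start, at 16575476 on chromosome 14, lies inside this 651493 bp gene and not at its annotated 5′ end, at 17082331. The only H3K27ac region within Rarb or 50 kb of it measured 853 bp, from 16433634 to 16434486. It lay near the 3′ end, 648271 bp from the annotated 5′ end but much closer to the listed start. Neither set had a region within 1 kb of this start.

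The lipid, sterol and bile acid receptors were mixed. Ppard, which encodes the fatty acid receptor PPAR delta, had 22 H3K27ac regions covering 27594 bp (16.4%), of which 14 touched the gene body. Regions of 2115 and 1945 bp lay at its 5′ and 3′ ends, and none of the 5 H3.3 regions in its window touched the gene. Ppara had no region at its ends and 5 H3K27ac regions in its flanks, the widest 661 bp. Pparg, the master regulator of fat cells, had no region of either set within 50 kb, with 53793 bp to the nearest H3K27ac and 194212 bp to the nearest H3.3 region. The oxysterol receptor gene Nr1h2 had H3.3 (765 bp) and H3K27ac (420 bp) at its 5′ end. These did not touch each other, and a second H3.3 region, of 413 bp at the 3′ end, was shared with Pold1. Nr1h3 also counted as having both marks, but at opposite ends. The H3K27ac region of 2216 bp at its annotated 5′ end was shared with Acp2 and the H3.3 region of 223 bp at its 3′ end with Madd, and neither of its 2 listed starts had a region within 1 kb. The bile acid receptor gene Nr1h4 had no region at its ends, and the only one within 50 kb was an H3.3 region of 486 bp at the neighbour Gas2l3.

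Neither mark was found at the ends of both thyroid hormone receptor genes and of 2 of the 4 clock receptor genes, against 55.8% of all genes. Thra and Nr1d1, which overlap at their 3′ ends and are transcribed towards each other, share 14 H3K27ac and 2 H3.3 regions in their windows, so they are not independent. Nr1d1, which encodes the circadian repressor REV-ERB alpha, had an H3K27ac region of 524 bp at its 5′ end. Thra had 3 H3K27ac regions of 312 to 1230 bp and an H3.3 region of 224 bp inside the gene, and none at an end. Thrb had no region of either set within 50 kb, and the nearest H3.3 region was 1293774 bp away. Nr1d2 had only 3 H3K27ac regions in its flank. Rora, at 734843 bp the longest member, had an H3.3 region of 836 bp and 3 H3K27ac regions of 217 to 887 bp inside the gene, covering 0.114% and 0.256% of it. Rorb had a single H3.3 region of 209 bp at its 5′ end and no H3K27ac region within 50 kb.

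Of the 3 vitamin D and xenobiotic receptor genes 2 had neither mark at an end, as had both HNF4 genes, against 55.8% of all genes. Vdr, the vitamin D receptor gene, had no region of either set within 50 kb. Nr1i2 and Nr1i3 encode the xenobiotic sensors PXR and CAR. Nr1i2 had 6 H3K27ac regions in its flank, and Nr1i3 an H3K27ac region of 551 bp at its 3′ end that was shared with Tomm40l. Hnf4a, a master regulator of hepatocytes, had 1 H3K27ac region of 345 bp inside the gene and 10 in its window, the widest of which (4838 bp) lay nearest to Fitm2. Hnf4g had 1 H3K27ac region of 2954 bp in its flank. Neither HNF4 gene had an H3.3 region within 50 kb, where 41.3% of all genes had one.

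The genes for the steroid hormone receptors had no region at their annotated ends, which also held for 55.8% of all genes. However, 2 of the steroid receptor genes had H3.3 just inside the 5′ end. Pgr, the progesterone receptor gene, had an H3.3 region of 1571 bp on chromosome 9 from 8899969 to 8901539, and its listed start at 8899833 lay within 1 kb of it. The region began just outside the 1 kb window around the annotated end at 8898900, so Pgr was counted with neither mark at gene ends. Nr3c2, the mineralocorticoid receptor gene, had H3.3 regions of 1391 and 358 bp near its listed start. Nr3c1, the glucocorticoid receptor gene, had 1 H3.3 region of 240 bp inside the gene. None of these 3 genes had an H3K27ac region within 50 kb, where 73.2% of all genes had one. The oestrogen receptor genes Esr1 and Esr2 had no H3.3 region in their windows, where 41.3% of all genes had one. Their flanks held 1 and 4 H3K27ac regions. Among the oestrogen-related receptors, Esrra had H3.3 regions of 421 bp at its 5′ end, shared with Catsperz, and 773 bp at its 3′ end, shared with Prdx5 and Trmt112. The second touched an H3K27ac region that began 1042 bp from the gene, just outside the end window, so Esrra was counted with H3.3 alone. Esrrg had only an H3K27ac region of 366 bp in a gene of 606376 bp.

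Nr6a1, which encodes GCNF, a repressor of Pou5f1 during differentiation, had an H3.3 region of 276 bp at its 5′ end and 7 H3K27ac regions inside the gene, the widest 3424 bp. Its neighbour Nr5a1, the gonadal and adrenal regulator SF-1, had no region at an end, and 2 H3.3 regions (265 and 213 bp) and 2 H3K27ac regions in its flank. Esrrb, Nr5a2 and Nr0b1, receptors of naive embryonic stem cells that are not members, were read for comparison. H3K27ac covered 20.7% of the gene and 50 kb either side at Esrrb and 14.9% at Nr5a2, both above the member median of 1.15%, and no region of either set was found at Nr0b1.

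Which end carried a region was read for the 38 members whose strand the start table gives. H3.3 lay at the 5′ end of 11 (28.9%, against 15.1% of 17492 genes) and at the 3′ end of 5 (13.2%, against 2.06%). The 3′ regions of Nr1h2, Nr1h3 and Esrra also touched the end of another gene, and those of Rarg and Nr2f2 did not. H3K27ac lay at the 5′ end of 8 (21.1%, against 34%) and at the 3′ end of 6 (15.8%, against 18.9%). Counted at listed starts in place of gene ends, H3.3 marked 13 of 38 members (34.2%, against 16.4%) and H3K27ac 10 of 38 (26.3%, against 36.2%). At listed starts Rara, Nr3c2 and Pgr entered the set with H3.3, and Nr1h3 and Nr2c2 left it. Of the 16 H3.3 and 16 H3K27ac regions at member ends, 5 of each also touched the end of another protein-coding gene. Without those, 9 members kept an H3.3 region at an end (21.4%, against 10.7% of all genes) and 7 an H3K27ac region (16.7%, against 28.2%).

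Over the gene and 50 kb either side, the members' share with H3.3 was again above that of all genes. H3.3 was present at 28 of 42 (66.7%, against 41.3%), and H3K27ac at 29 (69%, against 73.2%). Only Thrb, Vdr and Pparg had neither (7.14%, against 24.1%). The covered length was longer for the H3.3 set than for the H3K27ac set around 12 members (28.6%), which held for 4.46% of all genes in the same lists. These were Nr4a2 and Nr2e1, at ratios of 18 and 5.5, and 10 genes with no H3K27ac in the window, for which no ratio can be given. The median H3K27ac coverage was 1.15% over the members and 2.84% over all genes, and that of H3.3 was 0.242% and 0%. The median length of the members was 48.4 kb, against 17.2 kb over all genes, so their windows are larger. With H3.3 counted in the gene body alone, it was present at 16 members (38.1%, against 16.1%). The part of gene length in these differences was not tested.

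**Figure D3:**
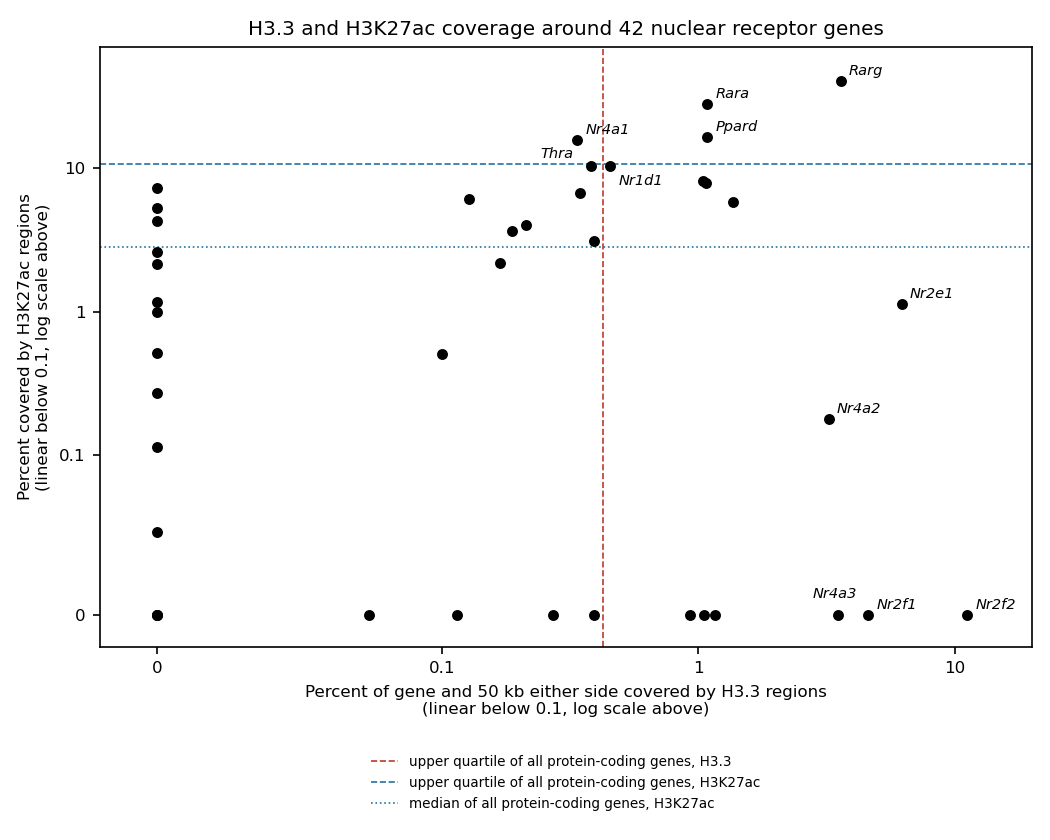
Percent of each receptor gene and 50 kb either side covered by H3.3 regions (horizontal) and H3K27ac regions (vertical), both linear below 0.1 and logarithmic above, with dashed lines at the upper quartiles of all protein-coding genes and a dotted line at their H3K27ac median; each point is 1 of the 42 genes, and points at 0 overlap. Nr2f2, Nr2f1 and Nr4a3 lie at the right with no H3K27ac, and Rarg, Rara, Ppard and Nr4a1 at the top.

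Most H3.3 regions around the receptor genes did not touch a listed H3K27ac region. Of 69 distinct H3.3 regions in the members' windows, 20 touched an H3K27ac region (29%, against 47.5% of all 5430 H3.3 regions on assembled chromosomes). Regions around 1 gene are not independent, and none of the 9 at Nr2f2, 6 at Nr2f1 and 4 at Nr2e1 touched H3K27ac. Of 71 pairings of an H3.3 region with a member, 40 had the region nearer to the member than to any other gene. Of 235 distinct H3K27ac regions, 19 touched an H3.3 region (8.09%, against 4.36%). At gene ends 3 of 16 H3.3 regions did so, at Rarg, Nr2c2 and Esrra. At Nr1h2 and Nr1h3, which also had both marks at their ends, the regions lay apart. Over genes with H3.3 at an end, the median of the widest such region was 701.5 bp in the 12 members and 486 bp in all genes with the mark. For H3K27ac these medians were 900 and 1388 bp.

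Start windows with a single mark had a higher median CpG content than those with neither, in the receptor genes and in all genes. CpG content is given as the observed number over that expected from the C and G content. Its median was 0.901 in the 7 receptor windows with H3K27ac alone, 0.743 in the 12 with H3.3 alone, 0.504 in the 3 with both and 0.467 in the 35 with neither. Over all protein-coding genes the medians were 0.776 with H3K27ac alone, 0.758 with H3.3 alone, 0.799 with both and 0.312 with neither. Windows of 1 gene are not independent. Some unmarked receptor windows were as CpG-rich as the marked ones, such as the first start of Rxra (1.08), the start of Rora (1.05) and the first starts of Thrb (0.946) and Pparg (0.909). The window of Nr2f2, at 0.109, was the poorest with H3.3.

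**Figure D4:**
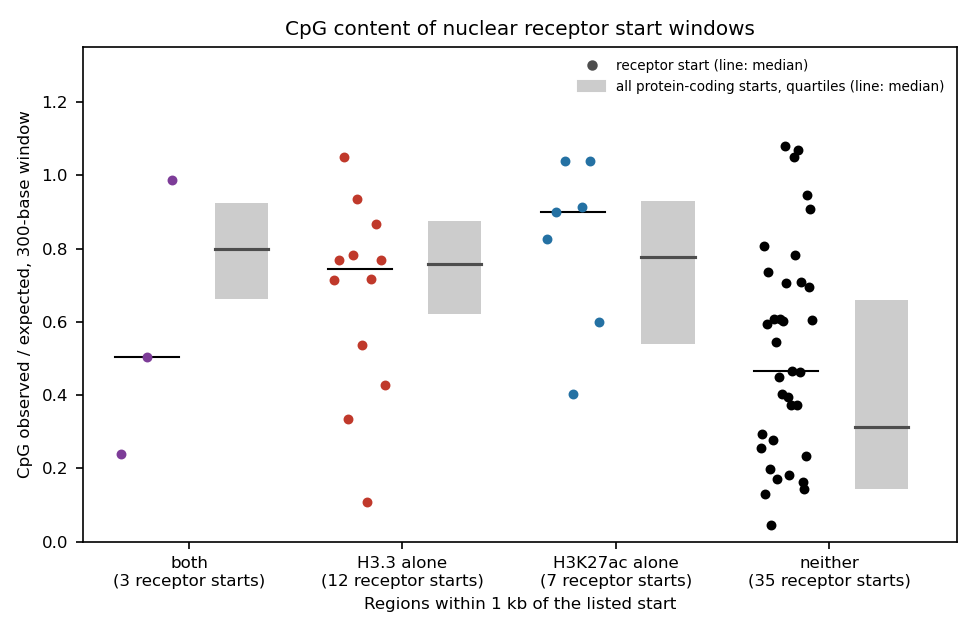
CpG observed over expected in the 300-base start windows of receptor genes (points, with a line at the median), by which regions lie within 1 kb of the start, beside the quartiles and median over all protein-coding start windows (grey boxes). Receptor windows with neither mark spread over the whole range, and their median (0.467) is below those with H3K27ac alone (0.901) or H3.3 alone (0.743).

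The genes of proteins that work with the receptors were read in the same way. Of 13 genes for retinoic acid synthesis, breakdown and transport, none had H3K27ac at an end, against 38.8% of all genes, and 3 had H3.3 (23.1%, against 16%). These were Cyp26a1, the enzyme that breaks down retinoic acid (2528 bp), the binding protein gene Crabp1 (1002 bp) and the synthesis gene Aldh1a2 (445 bp). Cyp26b1 had no region at an end, but 2 H3.3 regions in its window, of which the widest measured 3539 bp. Of 13 coactivator genes 7 had H3K27ac (53.8%, against 38.8%) and 5 had H3.3 (38.5%, against 16%), and 3 had both (10.7% of all genes did), among them Ep300, with 4116 bp of H3K27ac. Among 8 corepressor genes H3K27ac was present at 5 (62.5%, against 38.8%), widest at Ncor1 (9920 bp), and H3.3 at 2 (25%, against 16%). Of the 6 genes for receptor chaperones 5 had H3K27ac (83.3%, against 38.8%), widest at Ptges3 (13374 bp), and 3 of them also had H3.3 (50%, against 16%). The median H3K27ac coverage of the windows was 17% for coactivators, 15.7% for corepressors and 28.9% for chaperones, against 0.5% for the retinoic acid genes, 1.15% for the receptors and 2.84% for all genes. These lists are short and were not tested.

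**Figure D5:**
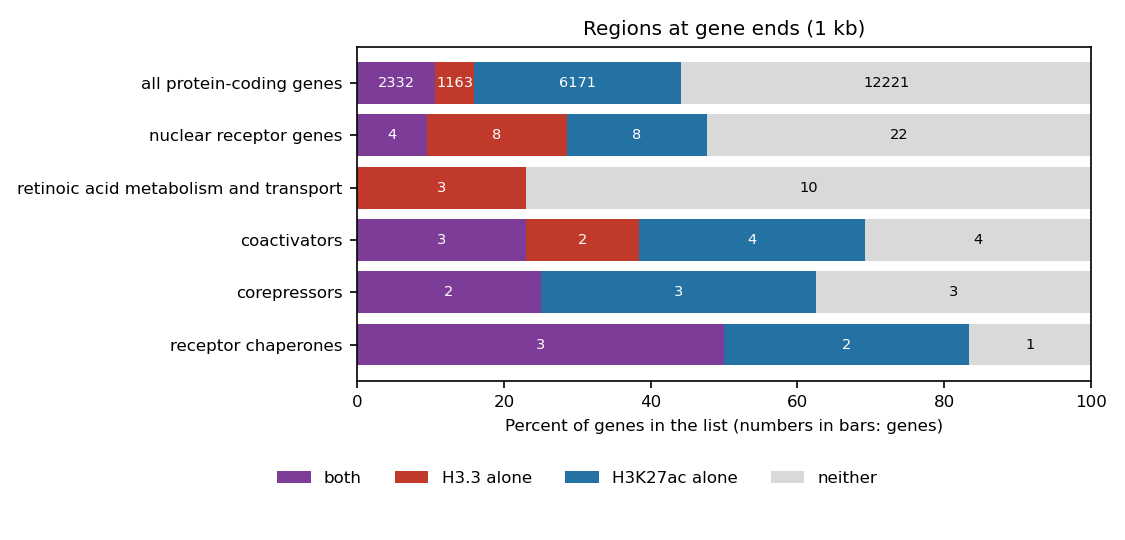
Share of genes in each list with both marks, H3.3 alone, H3K27ac alone or neither within 1 kb of a gene end, with the number of genes in each bar. Receptor genes have a larger red share (8 of 42) than all protein-coding genes, the retinoic acid genes have no blue or purple share, and the chaperone genes have 1 gene without H3K27ac.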

How the data were processed

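The authors deposited consensus regions as 1 list per target (H3.3, H3K27ac), which holds start and end positions and no signal or score. Each list pools libraries, and how these were combined is not given in the sources used here. Per the submitters' processing notes the build was mm10 and the tools included Bowtie2, SAMtools, deepTools and MACS2. Neither versions nor roles are stated there. Starts were raised by 1. Columns of other samples numbered 0. Regions off the 21 assembled chromosomes (16 for H3.3, 13 for H3K27ac) were left out. Gene positions came from RefSeq (GRCm38.p6, whose chromosomes carry mm10 coordinates), and strands and start windows from its promoter table.

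Overlaps were counted in Python 3.11.15 with numpy 2.4.6 and pandas 2.3.3, after a check on simulated regions, with exact (Clopper-Pearson) 95% intervals from scipy 1.17.1. The gene-end window was 1 kb, the flank 50 kb and the minimum overlap 1 bp. All 42 members are named, and those with H3.3 regions over 1 kb or H3K27ac regions over 2 kb at an end, both marks, or the most sequence of a mark nearby are described in full. The members, groups and lists were chosen with earlier results of these data known. No test was run, since the lists hold no value per library.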

Additional observations from a re-analysis of the deposited data

How the results depend on the processing

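The 10 counts and medians were recomputed under 58 alternatives, 2 of them chosen after seeing the data, and 37 stayed within 1.5 times the reported value. With regions anywhere in the gene or within 1 kb, 19 members had H3.3 (45.2%, against 19.6% of all genes) and 19 had H3K27ac (45.2%, against 50.8%). In that setting 9 had both (21.4%, against 15%) and 13 had neither (31%, against 44.6%). With the wider 50% of each set, 7 had H3K27ac (16.7%, against 27.8%) and 1 had both (2.38%, against 4.29%) at gene ends. In the same setting 17 had H3.3 within 50 kb (40.5%, against 25.2%). With a window of 2.5 kb, 7 had both (16.7%, against 13%). Without regions at the end of another gene, 7 had H3K27ac (16.7%, against 28.2%). In the gene body alone, 16 had H3.3 (38.1%, against 16.1%) and 16 had H3K27ac (38.1%, against 48.4%). Median coverage of the body was 0% for each mark, in the members and in all genes. Counting only regions nearest to the gene, 18 members had H3.3 (42.9%, against 18%) and 18 had H3K27ac (42.9%, against 51.9%) within 50 kb. Median coverage in the members was then 0% for each mark, against 0.18% for H3K27ac and 0% for H3.3 over all genes. The median H3K27ac coverage was 0.602% with a flank of 25 kb (2.25% over all genes) and 3.2% with 100 kb (3.4%). With the wider 50% of each set it was 0.755% (1.93%), and that of H3.3 was 0% (0%). With the flank of 100 kb, the share of members with an H3K27ac region nearby was above that of all genes (85.7% against 80.5%), where it was below with 50 kb (69% against 73.2%). The cause was not tested beyond what each setting removes or adds. The share of members with H3.3 at a gene end was above that of all genes in each of the 7 alternatives (19 to 45.2%, against 8.43 to 19.6%). No paired analysis was possible because the lists hold no value per library, and no replicate could be left out for the same reason. Depth is unknown, so the absence of a region does not show the absence of the mark.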
